A study of Rattus norvegicus with 6 samples.

Results

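Messenger RNA levels of 9 complement genes were examined in glomeruli of adult male Sprague-Dawley rats: C1qa, C1qb and C1qc, C3 and Cfb, the soluble inhibitors Cfi and Serping1, and the membrane regulators Cd55 and Cd59. The 9 were chosen by name as components and regulators of complement, and a gene was represented by its brightest Affymetrix probeset that carries 1 gene symbol. By that rule 8 of the 9 were measured, among 14506 genes in all. Cd59 was matched through its current RefSeq symbol Cd59b, of which Cd59 is a synonym. Cfb was not measured on its own, because its probeset is annotated to both Cfb and its neighbor C2, and no value is given for it. Each of the 8 measured genes had 1 probeset.

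Glomeruli held on a 90 µm sieve, enriched in those still inside Bowman's capsule, formed the PEC-enriched isolates (n = 3 arrays). Glomeruli collected on a 75 µm sieve, mostly without the capsule, formed the PEC-deprived isolates (n = 3 arrays). PECs are the parietal epithelial cells that line the capsule. No treatment of the rats is given, the cells were not cultured, and RNA was taken from individual rats. The methods count as many animals as there are arrays of one isolate, without saying that both isolates of a number came from the same rat. The p-values measure the spread between these preparations, and neither isolate is a pure cell population. The study also counted glomeruli without the capsule in every PEC-enriched preparation, and tubule fragments in both isolates.

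Complement is a cascade of plasma and tissue proteins that marks particles and cells for removal. C1q, built from A, B and C chains, starts the classical pathway. C3 is the component on which all pathways converge, and factor B is the protease of the alternative pathway. Factor I cleaves activated C3 and C4, C1 inhibitor (Serping1) blocks the first proteases, CD55 takes apart the C3 convertase at the cell surface, and CD59 stops assembly of the membrane attack complex. The glomerulus filters plasma across an exposed capillary wall and relies on such regulators. Much plasma complement is made in the liver, whereas C1q is made largely by macrophages and dendritic cells.

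None of the 8 measured genes differed between the isolates past the threshold of an adjusted p under 0.01 in limma (0 of 8). That is also the background, because 0% of all 29215 probesets passed, and the smallest adjusted p was 0.152. A regularised test with a local variance prior, run as an alternative, called 119 probesets and 0 of the 8 genes. At an unadjusted p under 0.05 the count was 0 of 8, against 7.96% of all genes higher and 5.65% lower in PEC-enriched isolates. The isolates overlapped in all 8 genes. Over all genes 9.68% lay entirely higher and 9% entirely lower on PEC-enriched arrays. The means of 6 of the 8 were lower in PEC-enriched isolates (75%, against 55.2% of all genes), and those of Cd55 and Cd59 were higher. The median log2 fold change, PEC-enriched minus PEC-deprived, was -0.12 for the 8 genes and -0.02 for all genes. Without single arrays 5 or 6 of the 8 means were lower.

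**Figure D1:**
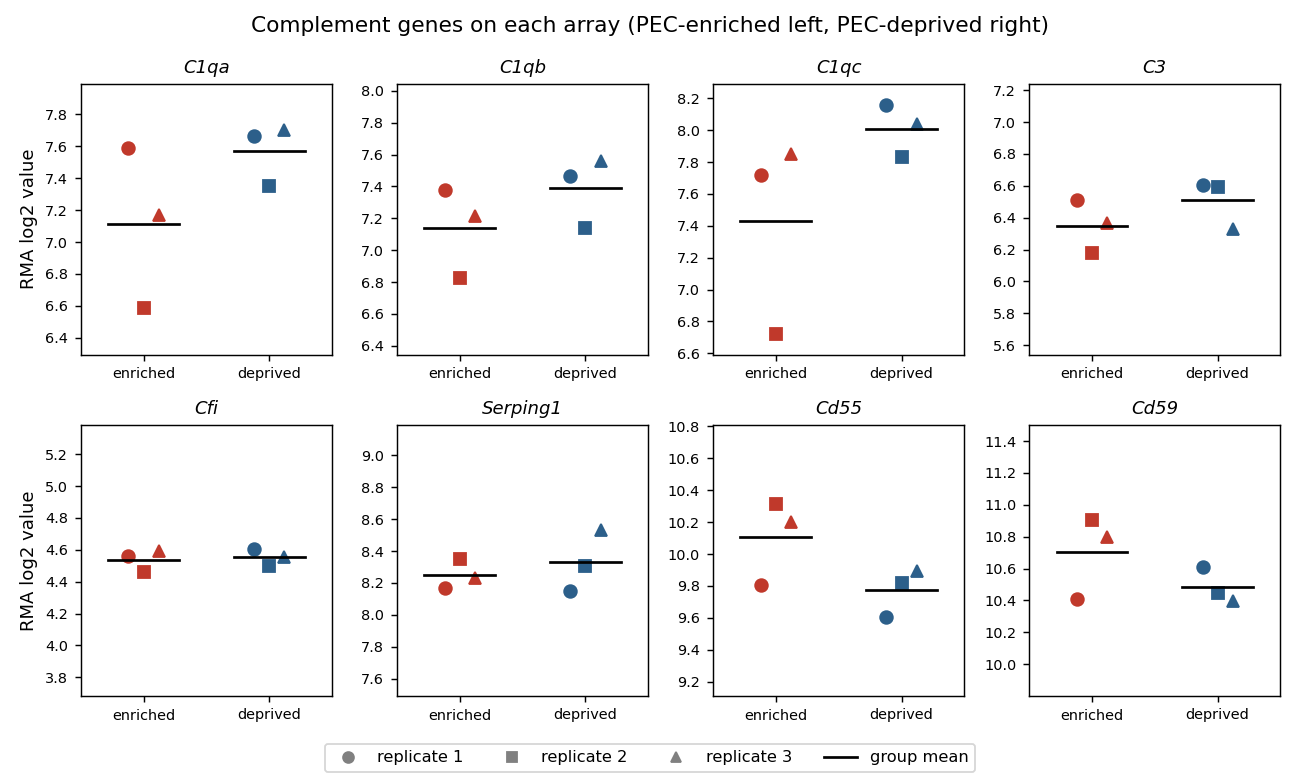
RMA log2 value (y axis, the same span in every panel) of the 8 measured complement genes on 3 PEC-enriched (left) and 3 PEC-deprived (right) arrays, with a point per array, its shape giving the replicate number, and a line at each group mean. The isolates overlap in every panel, and PEC-enriched replicate 2 is the lowest array for C1qa, C1qb and C1qc.

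Because the C1q chains varied together from array to array, their upstream sequences are shown before the values. C1qb, C1qc and C1qa are consecutive genes on rat chromosome 5 in the RefSeq annotation. RefSeq sequences of the GRCr8 assembly were matched for 5 of the 8 measured genes, C1qa and C1qb among them. The 250 bases before each start are printed 5′ to 3′ on the minus strand, which both genes use, for chr5:154419934-154420183 (C1qa) and chr5:154407828-154408077 (C1qb). Capitals mark the letters GAGGAA, a form of the site bound by the myeloid factor PU.1, searched on both strands. On the other strand it reads TTCCTC, also in capitals.
C1qa: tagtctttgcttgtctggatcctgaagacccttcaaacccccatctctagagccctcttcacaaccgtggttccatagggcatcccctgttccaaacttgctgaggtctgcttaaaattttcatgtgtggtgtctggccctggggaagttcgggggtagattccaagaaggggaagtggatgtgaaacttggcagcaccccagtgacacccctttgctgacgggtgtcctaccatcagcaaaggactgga
C1qb: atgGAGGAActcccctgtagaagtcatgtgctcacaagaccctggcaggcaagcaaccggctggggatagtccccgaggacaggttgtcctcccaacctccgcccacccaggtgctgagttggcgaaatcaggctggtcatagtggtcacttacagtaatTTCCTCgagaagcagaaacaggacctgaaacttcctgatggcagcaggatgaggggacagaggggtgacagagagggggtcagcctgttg
The C1qa window held 0 matches to GAGGAA and the C1qb window 2, and 23.3% of 33469 windows of the same length held at least 1. The interferon response element, present in 3.41% of windows, was found in neither. The matches did not overlap, and a match of letters is not a bound site. Other forms of the PU.1 site were not searched, so 0 matches does not mean that C1qa lacks one.

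The A chain gene C1qa had log2 values of 7.59, 6.59 and 7.17 on the PEC-enriched arrays, in the order of replicates 1 to 3, against 7.66, 7.35 and 7.70 on the PEC-deprived arrays. PEC-enriched replicate 2 was lowest, and replicate 1 lay within the PEC-deprived range. The means were 7.11 ± 0.503 on PEC-enriched and 7.57 ± 0.191 on PEC-deprived arrays (SD, n = 3 each). The log2 fold change was -0.46 with a standard error of 0.233 (limma, adjusted p = 0.576), or 0.728-fold with a 95% interval of 0.502 to 1.06.

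The B chain gene C1qb stood at 7.38, 6.83 and 7.21 on PEC-enriched arrays, against 7.46, 7.14 and 7.56 on PEC-deprived arrays, and again only PEC-enriched replicate 2 lay below every other array. Its log2 fold change was -0.25 (standard error 0.166, adjusted p = 0.717), or 0.842-fold with an interval of 0.645 to 1.10.

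The C chain gene C1qc had the lowest log2 fold change of the 8. Its values were 7.72, 6.72 and 7.85 on PEC-enriched arrays, against 8.16, 7.83 and 8.04 on PEC-deprived arrays. PEC-enriched replicate 3 stood just above PEC-deprived replicate 2, which is the whole of the overlap. The difference was -0.58 (standard error 0.272, adjusted p = 0.528), or 0.670-fold with an interval of 0.435 to 1.03.

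One array weighed heavily on the C1q differences. Without PEC-enriched replicate 2 the log2 fold changes were -0.19 for C1qa, -0.09 for C1qb and -0.22 for C1qc, each less than its full value by over 1.5 times. Without PEC-enriched replicate 1 that of C1qa was -0.69 (adjusted p = 0.189). The direction stayed the same for all 3 chains whichever array was left out.

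Over the 6 arrays C1qa correlated with C1qb at Pearson's r = 0.959 (Spearman's rho 0.943), C1qa with C1qc at 0.909 (0.714) and C1qb with C1qc at 0.878 (0.771). With each isolate's mean removed the values were 0.947, 0.857 and 0.830. Without the pair of arrays farthest from the median of the first gene, r was 0.989, 0.570 and 0.517, so the relation of C1qc to the other chains rested on those arrays. These are descriptions over 6 arrays that share a normalization.

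PEC-enriched replicate 2 was also the lowest array for the mean of the macrophage markers. Of 16 listed markers 15 were measured, and all 15 means were lower on PEC-enriched arrays (median difference -0.37 on the log2 scale). Of these 0 passed the adjusted threshold, 6 had a lower mean at an unadjusted p under 0.05 (40%, against 5.65% of all genes), and 3 lay entirely lower (20%, against 9%). The mean log2 level of the list was 7.58, 6.92 and 7.21 on PEC-enriched arrays, against 7.63, 7.50 and 7.68 on PEC-deprived arrays, and no marker could be called absent since the table holds no detection calls. The defining markers Cd68, Csf1r and Ptprc, which encode a lysosomal glycoprotein, the receptor of colony stimulating factor 1 and CD45 (borne by all leukocytes), had log2 fold changes of -0.44, -0.35 and -0.46. The list correlated with C1qa at r = 0.984 (0.984 within isolates), with C1qb at 0.911 (0.892) and with C1qc at 0.864 (0.771). Lymphocyte markers, 7 of 8 measured and 6 of them lower in mean, correlated with C1qa at 0.867 (0.787), with C1qb at 0.874 (0.847) and with C1qc at 0.922 (0.876). Their mean log2 level was 5.76 to 6.10 on PEC-enriched arrays, against 6.14 to 6.33 on PEC-deprived arrays. Of the 7 lymphocyte markers, 3 had a lower mean at an unadjusted p under 0.05 (42.9%, against 5.65% of all genes). Likewise 3 lay entirely lower (42.9%, against 9%). Both counts were of Ms4a1, Nkg7 and Lck. Ms4a1 and Nkg7 were dim, brighter than only 26.2% and 34.8% of probesets, and whether their signal exceeded background is unknown. Of 8 endothelial markers, 7 had a lower mean at an unadjusted p under 0.05 (87.5%, against 5.65%). Entirely lower were 5 (62.5%, against 9%). The study had called Ehd3 among them on these same arrays. Endothelial markers correlated with the chains at 0.865 (0.814 within isolates), 0.736 (0.633) and 0.729 (0.497), in the order A, B and C. Mesangial markers, 5 of 7 measured, correlated at 0.738 (0.783), 0.614 (0.607) and 0.444 (0.413) in that order. Without PEC-enriched replicate 1 the median of the macrophage list was -0.57, and without PEC-enriched replicate 2 it was -0.21, where 14 of the 15 means were lower. The part of macrophages, lymphocytes, endothelium and mesangial cells in the C1q values was not tested. In whole glomeruli fewer such cells and less RNA per cell cannot be told apart.

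The genes most like each C1q chain were sought among 7253 genes, or 7252 for C1qc, above the median level. For C1qa they were Cd74, the invariant chain of MHC class II (r = 0.998), the matrix metalloproteinase gene Mmp9 (0.996) and RT1-DMa, which helps to load peptides on MHC class II (0.994). For C1qc they were Tnfrsf11b, which encodes osteoprotegerin (0.998), the myeloid adaptor Tyrobp, itself on the macrophage list (0.990) and Ly86, a partner of a Toll-like receptor relative (0.984). For C1qb they were Dxo (0.990), the cathepsin gene Ctsz (0.986) and Ccdc102a (0.981). These are the highest of many correlations over 6 arrays and were selected as such.

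**Figure D2:**
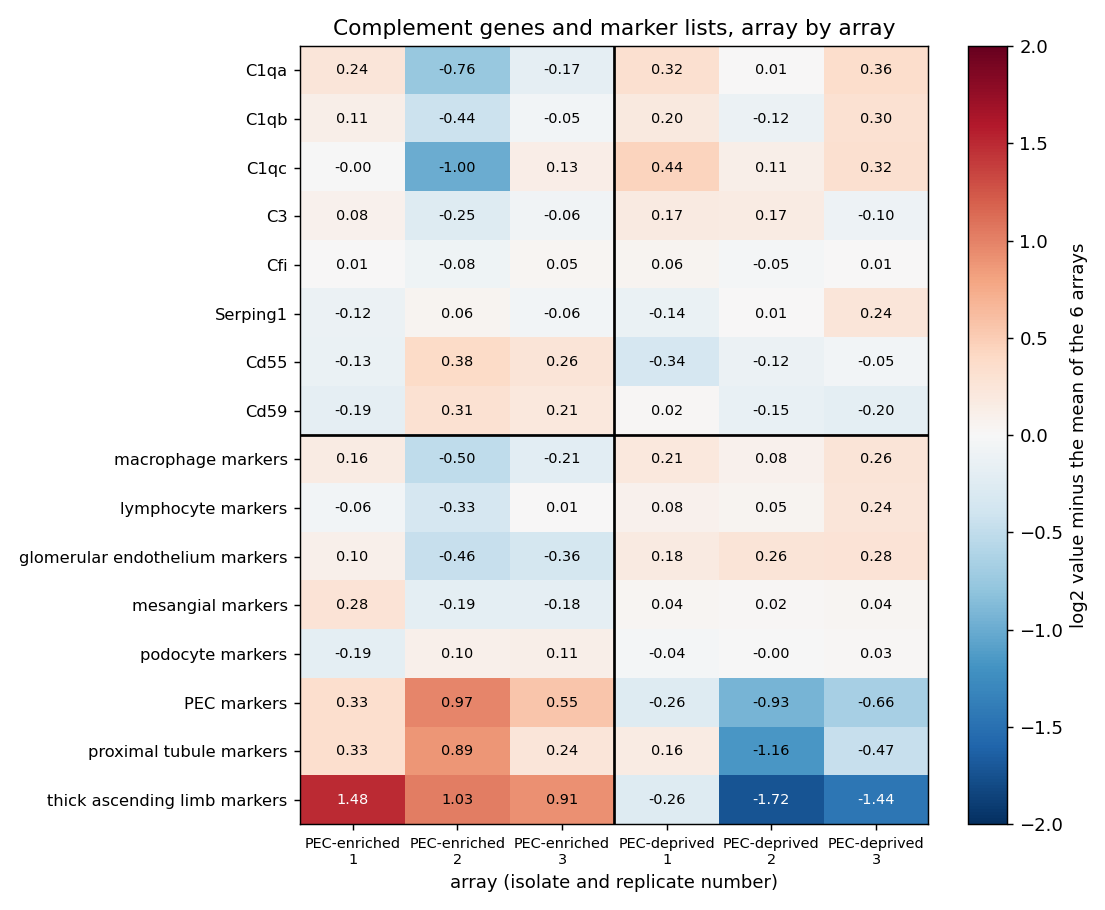
Log2 value minus the mean of the 6 arrays (color and printed number) for the 8 measured complement genes (upper rows) and for the mean level of 8 marker lists (lower rows), by array (columns, PEC-enriched left and PEC-deprived right). On PEC-enriched replicate 2 C1qa, C1qb and C1qc stand at -0.76, -0.44 and -0.996, the macrophage list at -0.50, and Cd55 and Cd59 at 0.38 and 0.31.

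C3, the central component, also had a lower mean in PEC-enriched isolates. It had log2 values of 6.51, 6.18 and 6.37 on PEC-enriched arrays, against 6.60, 6.60 and 6.33 on PEC-deprived arrays, and the highest PEC-enriched array lay above the lowest PEC-deprived one. The difference on the log2 scale was -0.16 (standard error 0.123, adjusted p = 0.772), or 0.896-fold with an interval of 0.736 to 1.09. It was -0.07 without PEC-enriched replicate 2 and -0.25 without PEC-deprived replicate 3. C3 correlated with the C1q chains at r between 0.472 and 0.703, and at -0.686 to 0.291 without the pair of arrays farthest from the median.

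Of the soluble inhibitors, Serping1 stood at 8.17, 8.35 and 8.23 on PEC-enriched arrays, against 8.15, 8.30 and 8.53 on PEC-deprived arrays. PEC-deprived replicates 1 and 3 lay at the low and high ends, so the PEC-enriched arrays fell inside the PEC-deprived range. The log2 fold change was -0.08 (standard error 0.118, adjusted p = 0.902), with a fold interval of 0.783 to 1.14. Without PEC-deprived replicate 3 it was 0.02, which reversed its sign.

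Cfi, for the protease that inactivates C3b and C4b, was dim, brighter than only 14.9% of probesets. Its values were 4.56, 4.46 and 4.59 on PEC-enriched arrays, against 4.61, 4.50 and 4.56 on PEC-deprived arrays, a span too small to separate any array from the rest. Its log2 fold change was -0.02 (standard error 0.0882, adjusted p = 0.977), and its sign was reversed, to 0.02, by cyclic loess. Whether this signal exceeded background is unknown, and a dim probeset can understate a difference.

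The membrane regulators Cd55 and Cd59 had higher means in PEC-enriched isolates, but this did not extend to membrane regulators as a class. Of 4 other measured genes listed in that role, 3 had a lower mean. Their log2 fold changes were -0.48 for Thbd, -0.18 for Cd46 and -0.16 for Susd4, against 0.0025 for Csmd1. Cd55, for decay accelerating factor, stood at 9.81, 10.32 and 10.20 on PEC-enriched arrays, against 9.60, 9.82 and 9.89 on PEC-deprived arrays. PEC-enriched replicates 2 and 3 lay above all PEC-deprived arrays, and replicate 1 lay among them. The means were 10.11 ± 0.265 on PEC-enriched and 9.77 ± 0.149 on PEC-deprived arrays. The difference on the log2 scale was 0.34 (standard error 0.148, unadjusted p = 0.0525, adjusted p = 0.489 in limma), or 1.26-fold with an interval of 0.997 to 1.60. It ran from 0.23 to 0.49 without single arrays, and its adjusted p was 0.151 without PEC-enriched replicate 1.

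Cd59, the inhibitor of the membrane attack complex, had 10.41, 10.91 and 10.80 on PEC-enriched arrays, against 10.61, 10.44 and 10.40 on PEC-deprived arrays. PEC-enriched replicates 2 and 3 were again highest, and replicate 1 lay between PEC-deprived replicates 2 and 3. The log2 fold change was 0.22 (standard error 0.142, adjusted p = 0.699), or 1.17-fold with an interval of 0.930 to 1.46. It was 0.12 without PEC-enriched replicate 2 and 0.37 without PEC-enriched replicate 1, the ends of its range without single arrays.

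The genes closest to Cd55 across the arrays were Lnpep, an aminopeptidase (r = 0.995), Ptpro (0.990) and Ahcyl1 (0.986). Ptpro encodes a receptor phosphatase of podocyte foot processes and is itself on the podocyte list. Those closest to Cd59 were the microtubule gene Mapre3 (0.992), Shroom3, an actin regulator of epithelia (0.987), and Ipo7 (0.984). These too were selected as the highest of many correlations. The podocyte list, of which 6 of 8 markers were measured, correlated with Cd55 at r = 0.704 (0.922 within isolates) and with Cd59 at 0.685 (0.789). The PEC list correlated with Cd55 at 0.707 (0.257) and with Cd59 at 0.774 (0.79). The mean log2 level of the podocyte list was 11.87, 12.16 and 12.18 on PEC-enriched arrays, against 12.02, 12.06 and 12.09 on PEC-deprived arrays, with 3 higher means and 3 lower. The proximal tubule list correlated with Cd55 at 0.483 (-0.0704) and with Cd59 at 0.688 (0.491). The endothelial list ran the other way, at r = -0.885 with Cd55 (-0.768 within isolates) and -0.927 with Cd59 (-0.975). So did the macrophage list, at -0.905 with Cd55 (-0.82) and -0.896 with Cd59 (-0.849). The mesangial list stood at -0.751 with Cd55 (-0.862) and -0.841 with Cd59 (-0.895). The part of podocytes, PECs, proximal tubules, endothelium, macrophages and mesangial cells in the Cd55 and Cd59 values was not tested.

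Markers of the capsule and of tubules gave the scale of a difference between these isolates. Of 12 listed PEC markers 11 were measured, and all their means were higher on PEC-enriched arrays (median difference 1.47 on the log2 scale). Of the 11, 10 lay entirely higher (90.9%, against 9.68% of all genes). Most of the 11 were called by the study on these same arrays. Their median and their share without overlap are therefore high by selection, and the comparison with all genes is no independent evidence. Proximal tubule markers, 9 of 10 measured, also were all higher in mean, with a median of 1.02 (0.659 without PEC-deprived replicate 2). All 5 measured thick ascending limb markers were higher in mean, with a median of 2.22. The study called these 5 on the same arrays, so their median too is high by selection. The 8 endothelial markers were all lower in mean, with a median of -0.51. Of all 14506 genes, 6500 had a higher mean and 8002 a lower mean. The intervals of all 8 complement genes lay within a log2 difference of -1.20 to 0.68. The intervals of C1qa, C1qb and C1qc included the endothelial median of -0.51. Those of C3, Cfi, Serping1, Cd55 and Cd59 did not. None of the 8 included the PEC median. Because the PEC list was largely selected on these arrays, this does not show how PECs express the 8 genes.

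The rest of the pathway was listed by role, and 39 of 48 further complement genes were measured. C5, the component that opens the terminal pathway, was among the 9 not analysed here. Over the 39 measured genes the median log2 fold change was -0.03, with 14 higher means and 25 lower (64.1%, against 55.2% of all genes). Without single arrays it lay between -0.0648 (without PEC-enriched replicate 1) and -0.0265, and it was -0.16 over probesets above the median level. None passed the adjusted threshold (0 of 39). At an unadjusted p under 0.05, 1 was higher (2.56%, against 7.96% of all genes) and 4 were lower (10.3%, against 5.65%). The isolates did not overlap for 1 higher gene (2.56%, against 9.68%) and 3 lower genes (7.69%, against 9%). Without single arrays between 21 and 28 of the 39 means were lower.

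**Figure D3:**
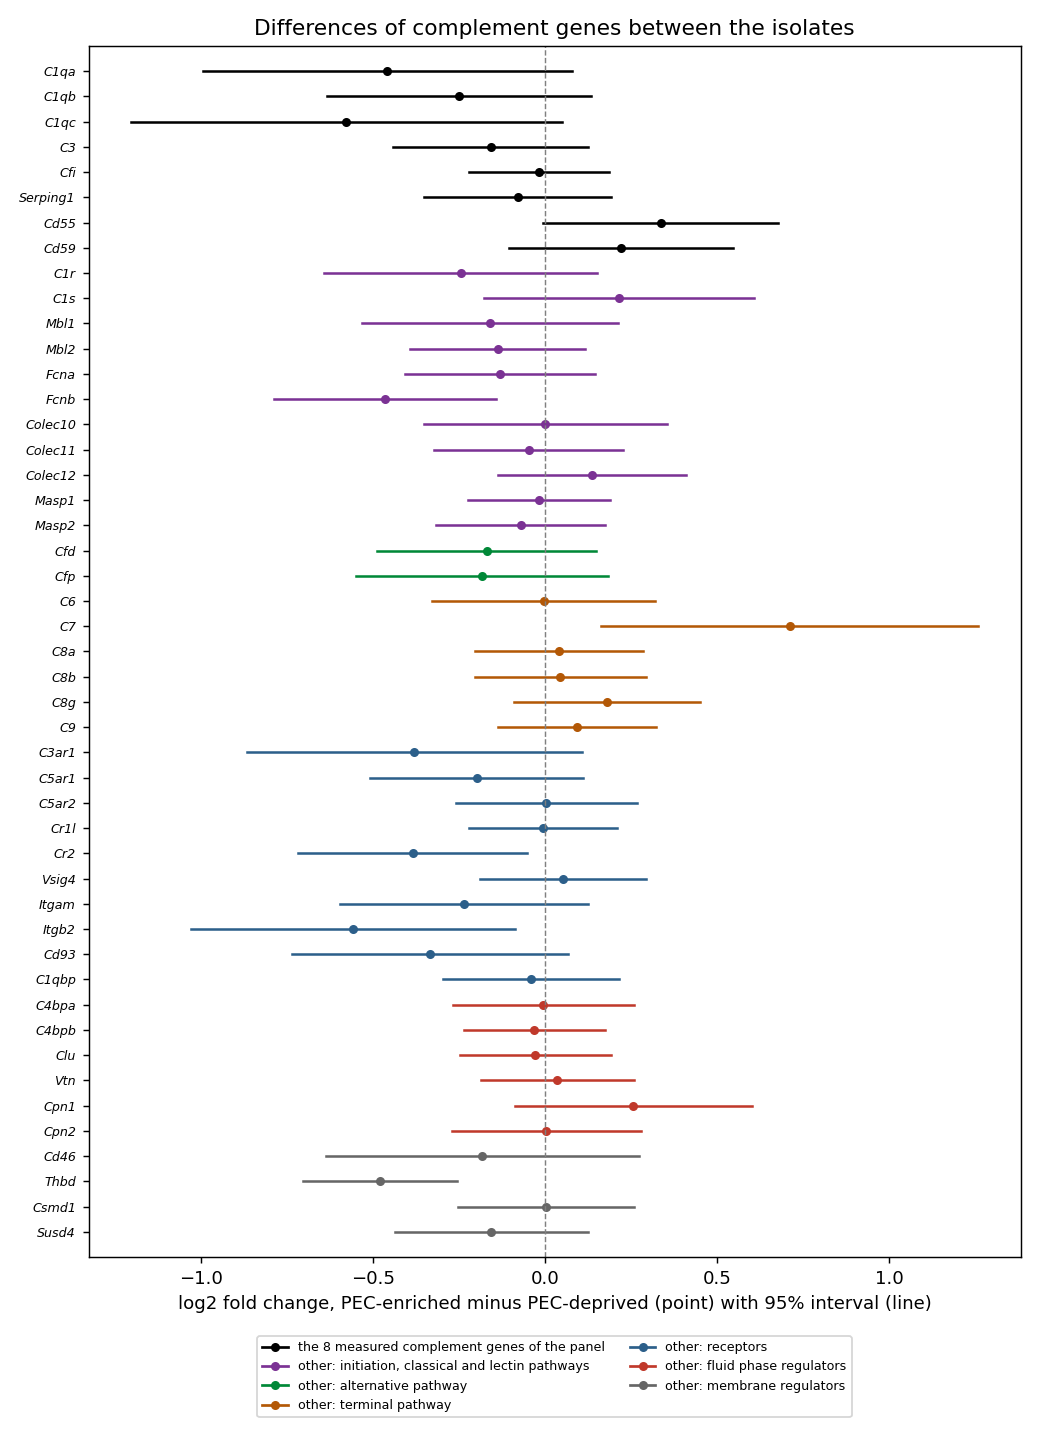
Log2 fold change, PEC-enriched minus PEC-deprived (points), with its 95% interval from limma (lines) for the 8 measured complement genes (black) and 39 other complement genes colored by role (y axis). Among the black rows every interval includes 0, and among the others those of C7, Fcnb, Cr2, Itgb2 and Thbd do not.

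The gene higher throughout was C7, a subunit of the membrane attack complex. C7 was dim, brighter than only 26.7% of probesets, and whether its signal exceeded background is unknown. It had log2 values of 5.59, 6.27 and 5.38 on PEC-enriched arrays, against 5.11, 4.71 and 5.29 on PEC-deprived arrays, and the gap between the isolates was narrow. Its log2 fold change was 0.71 (standard error 0.238, unadjusted p = 0.0172, adjusted p = 0.345 in limma). The other 5 measured genes of the terminal pathway had log2 fold changes between -0.0038 and 0.18.

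Thbd, for thrombomodulin, an endothelial receptor that promotes inactivation of C3b, had the smallest unadjusted p of the 39. It stood at 9.67, 9.55 and 9.41 on PEC-enriched arrays, against 10.04, 10.02 and 10.01 on PEC-deprived arrays. The difference on the log2 scale was -0.48 (standard error 0.0969, unadjusted p = 0.0011, adjusted p = 0.172 in limma), close to the endothelial median. The endothelial list had mean levels of 11.18, 10.61 and 10.72 on PEC-enriched arrays, against 11.26, 11.34 and 11.36 on PEC-deprived arrays, and its part in the Thbd difference was not tested.

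Of the initiators, the ficolin gene Fcnb had 8.01, 7.51 and 7.83 on PEC-enriched arrays, against 8.19, 8.16 and 8.39 on PEC-deprived arrays, a log2 fold change of -0.46 (standard error 0.140, adjusted p = 0.310). Of 11 initiators measured, 8 had a lower mean, with C1r, the protease bound to C1q, at -0.24 and C1s, its partner, at 0.22, both singled out after their values were seen. Of 10 receptors, 8 had a lower mean. Itgb2, the beta chain of complement receptor 3 on leukocytes, stood at 8.24, 7.62 and 7.43 on PEC-enriched arrays, against 8.16, 8.27 and 8.52 on PEC-deprived arrays, a log2 fold change of -0.56 (standard error 0.204, adjusted p = 0.382). Cr2, a receptor of B cells, was dim, with 4.27, 3.97 and 4.55 on PEC-enriched arrays, against 4.61, 4.67 and 4.66 on PEC-deprived arrays, and a log2 fold change of -0.38 (standard error 0.145, adjusted p = 0.397).

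The remaining roles showed smaller differences. In the alternative pathway the properdin gene Cfp had the larger one, -0.18 (adjusted p = 0.799). Among 6 fluid phase regulators it was Cpn1, for the carboxypeptidase N that inactivates anaphylatoxins, with 0.26 (adjusted p = 0.658). Cr1l, which encodes Crry, a membrane regulator of rodents, was listed among the receptors as Cr1 and matched by synonym, and it was singled out after its values were seen. It had 10.70, 10.79 and 10.59 on PEC-enriched arrays, against 10.72, 10.74 and 10.64 on PEC-deprived arrays, and its log2 fold change of -0.01 had an interval of -0.22 to 0.21. Whether Cr1l differed from Cd55 or Cd59 in its response was not tested.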

How the data were processed

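RNA from 6 glomerular preparations was hybridized to Affymetrix Rat Gene 1.0 ST arrays. The authors adjusted the background, quantile normalized and summarized probesets by RMA, also named in the submitters' processing notes, without a version. The deposited values were read as log2 expression, the scale of RMA. They run from 2.13 to 13.87, with array medians of 6.69 to 6.75, and arrays correlated at 0.9816 to 0.9937. No arrays were identical, and their number limits precision. Detection calls were not used here.

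Groups came from the sample titles. PEC-enriched arrays were compared with PEC-deprived arrays with limma 3.58.1 under R 4.3.3, by a two-sided moderated test without covariates, over all 29215 probesets, with Benjamini-Hochberg adjustment. The methods of the study use a Bayesian t-test at the same threshold of 0.01. Symbols came from the platform annotation, updated through Entrez IDs to RefSeq symbols of GRCr8. Of the probesets, 15310 have 1 symbol. The complement genes and all lists were chosen with earlier results of these data known, so they are not independent of them, and no list was tested. Other complement genes were named if they had an unadjusted p under 0.05 or no overlap, or else, per role, for the largest difference. C1r, C1s and Cr1l were added after their values were seen. Like genes were the 3 of highest Pearson correlation. Listed genes lacking such a probeset were not analysed here. The tests were run on simulated data with known changes, where a larger share of the calls was false with the regularised test than with limma. The simulation drew genes independently and took each observed variance as the true one. It therefore does not give the share of false calls in the real data. Alternatives were a replicate block, an intensity trend, array weights, a regularised t-test (prior weight 10), filters on level and annotation, cyclic loess, median centring, a threshold of 0.05, the mean of a gene's probesets and each array left out. Counts of lower means without single arrays were added after seeing the data. Figures were drawn with matplotlib 3.10.9.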

Additional observations from a re-analysis of the deposited data

How the results depend on the processing

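None of the 8 measured complement genes passed the threshold under any alternative (0 in each, with 119 probesets of all genes called by the regularised t-test and 0 to 1 without single arrays, the 1 without PEC-deprived replicate 1). The log2 fold changes of C1qa, C1qb, C1qc, C3, Cd55 and Cd59 kept their direction without each single array and with array weights, median centring and cyclic loess. The other settings change the test or threshold and leave these values as they are. That of Cfi was 0.0195 with cyclic loess and ran from -0.0448 to 0.0202 without single arrays. That of Serping1 ran from -0.1691 to 0.0219. The median of the other complement genes was -0.16 over probesets above the median level, where fewer genes remained. Same-numbered arrays deviated from their group means with correlations of -0.0287, 0.0519 and 0.1, so the numbers were not taken as pairs. With the replicate block 0 probesets passed, as without it. The number of arrays and the unknown signal over background limit what could be detected for dim probesets such as Cfi, Cr2 and C7.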
